A study of Mus musculus with 32 samples.

Results

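The comparison described here asks whether the difference between 2 compounds, XCT790 and CompA, depends on genotype in stimulated mouse CD4+ T cells. It is an interaction: the XCT790 minus CompA difference in knockout-labelled (KO-labelled) cells minus the same difference in wild-type (WT) cells. It uses the 16 of 32 RNA sequencing libraries whose labels name 1 of the compounds, in 4 groups of 4 libraries, and no library without an inhibitor. The cells were isolated from C57BL/6J spleens and lymph nodes (inguinal and axillary), and all 4 groups were stimulated through CD3 and CD28 with antibodies for 12 h. The groups were WT with XCT790, WT with CompA, KO with XCT790 and KO with CompA, each compound at 10 µg/ml, and KO stands for deficiency of Nur77. How the knockout allele was made and the vehicle of the compounds are not given in the sources used here. Whether replicate libraries stem from different animals is not labelled, so p-values describe variation among these libraries only, and that variation may be technical. Because unstimulated cells and stimulated cells without inhibitor are not part of the comparison, a difference between XCT790 and CompA does not tell which of the compounds moved a gene.

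Nur77, encoded by Nr4a1, is an orphan nuclear receptor induced within hours of antigen receptor signalling, and Nr4a2 and Nr4a3 encode its relatives. XCT790 acts as an inverse agonist on ERR-alpha, the estrogen-related receptor encoded by Esrra, which drives genes of mitochondrial respiration. CompA is known here only by its code. Several genes below belong to the integrated stress response, in which amino acid shortage or other stress raises translation of the transcription factor ATF4, and ATF4 then induces amino acid synthesis and transport, aminoacyl-tRNA synthetases and its own feedback regulators.

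Gene counts per library ran from 16020288 to 21028637. Of 24302 genes in the files, 11159 passed the filter on low counts. Cd3e, at 221 to 308 CPM (counts scaled for library size by edgeR), and Cd4, at 322 to 507 CPM, were present in all 16 libraries, while Cd8a stayed at 3.10 to 27.7 CPM. B cell and plasma cell markers summed to 298 and 332 CPM in the 2 libraries of KO replicate 2, against 33.3 to 83.5 CPM in the other 14. The 22 macrophage, monocyte and dendritic markers summed to 110.2 to 142 CPM with XCT790 and 111 to 148 CPM with CompA in WT, and to 166 to 219.6 CPM and 171 to 237 CPM in KO-labelled cells, higher in every KO-labelled library than in any WT one. The 16 markers of CD8 T and natural killer cells summed to 36.8 to 42.2 CPM and 51.7 to 55.0 CPM in WT and to 51.3 to 77.0 CPM and 71.6 to 92.0 CPM in KO-labelled cells, in the same order. The 19 erythroid, platelet, neutrophil and stromal markers, of which the globin genes Hbb-bs and Hbb-bt were at 0 in all 16 libraries, summed to 16.6 to 34.0 CPM and 28.2 to 86.0 CPM in WT and to 26.5 to 78.7 CPM and 32.0 to 202 CPM in KO-labelled cells. Within each of the 8 runs the sums of B cell, of CD8 T and natural killer cell, and of erythroid to stromal markers were lower with XCT790 than with CompA. The part of these cells in the interactions was not tested. In bulk samples, fewer cells of a type and less RNA per cell cannot be told apart. WT libraries are numbered 1 to 16 and KO libraries 25 to 40, so the order of preparation that such numbers may reflect cannot be told apart from genotype. Within a genotype, 4 consecutive numbers form a run that holds 1 library of each treatment, and XCT790 and CompA libraries of the same replicate number share a run.

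Nr4a1 (chromosome 15, 101253902 to 101274795, GRCm38), the targeted gene, stood in WT at 155, 172, 179 and 178 CPM with XCT790 and at 325, 314, 335 and 378 CPM with CompA, in the order of replicates 1 to 4. In KO-labelled cells it stood at 308, 346, 191 and 239.6 CPM with XCT790 and at 753, 501, 403 and 453 CPM with CompA. All KO-labelled libraries lay above all WT libraries of the same compound, so the transcript was not lower under the KO label. The KO minus WT difference was 0.67 on the log2 scale with XCT790 and 0.64 with CompA (edgeR's quasi-likelihood test, adjusted p = 0.0223 and 0.0306). A gene count does not show whether an altered transcript makes protein, and an exchange of genotype labels was not tested, so each genotype direction below rests on the labels. XCT790 libraries held about as much less Nr4a1 than CompA libraries in either genotype, -0.98 in WT and -0.96 in KO-labelled cells. The interaction for Nr4a1 was 0.02 ± 0.25 (log2 ± SE, n = 4 libraries per group, 95% interval -0.52 to 0.56).

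Treated as 4 independent groups, the libraries gave no gene whose compound difference changed with genotype: edgeR's quasi-likelihood test called 0 of 11159 genes (0%) at an adjusted p under 0.05, with a smallest adjusted p of 1. At an unadjusted p under 0.05 there were 166 genes, 1.49% of those tested, 110 positive and 56 negative. A positive interaction means that XCT790 minus CompA was higher in KO-labelled cells than in WT. With the same libraries limma-voom called 0 genes and DESeq2 called 4, Gys1, Pck2, Slc7a3 and Trib3, all positive. The median standard error of an interaction was 0.172 on the log2 scale.

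Libraries of a run deviated together, which the 4-group fit leaves in its error. Deviations from the group means correlated across genes at 0.210 to 0.593 between the XCT790 and the CompA library of a WT run and at 0.603 to 0.744 in KO-labelled runs, against at most 0.150 between libraries of different runs. With the run as a replicate block, each XCT790 library is compared with the CompA library of its own run. The median standard error was then 0.088, and 63 genes passed (0.565%), 44 of them positive (0.394%) and 19 negative (0.17%), with a smallest adjusted p of 1.79e-05. The count was 38 to 122 when each of the 8 runs was left out. It was 41 without WT run 1, 122 without WT run 2, 38 without KO run 3 and 108 without KO run 2, the run with the high B cell markers, and 58 of the 63 genes were among those 108. All 63 kept their sign in every one of 16 alternatives to the blocked fit, 34 stayed called without each of the 8 runs, and 20 stayed called in all 16. With the run as a random term in limma-voom 29 genes were called, 24 of them among the 63. A called interaction below is one called with the block. The 4-group edgeR test called none of them.

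The compound difference itself correlated between the genotypes across genes and was smaller in KO-labelled cells for nearly all called interactions. Across 11159 genes the difference in KO-labelled cells correlated with that in WT at Pearson's r = 0.767 and Spearman's rho = 0.783, a description across genes of libraries that the genotypes do not share. Without the block 1590 genes (14.2%) differed between the compounds in WT and 606 (5.43%) in KO-labelled cells. With the block, 4909 genes (44%) differed between the compounds in WT and 3980 (35.7%) in KO-labelled cells. The same direction held for 3220 genes called in both, 65.6% of those of WT and 80.9% of those of KO, and the opposite direction for 4. Among the 3220 genes, 74.3% had the smaller difference in KO-labelled cells. Of the 63 interaction genes, 62 had the smaller estimate in KO-labelled cells, by size and whatever the sign. The exception was Tfrc, the transferrin receptor. The count of 62 is a description only, because the 63 genes were called on these same differences. It is not matched to the 3220 genes, which share a sign. Over all genes the SD of the difference was 0.297 in KO-labelled cells and 0.389 in WT with the block. In 49 genes the difference kept its sign and shrank in KO-labelled cells, and in 14 the estimates had opposite signs. The 4 within-run differences of the genotypes did not overlap in 61 of the 63 genes, Hspa1b and Mfhas1 being the others, against 630 of all genes (5.65%), a description only, because the genes were called on these same differences. KO-labelled runs lay above WT runs in 43 of them (2.49% of all genes) and below in 18 (3.15%).

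**Figure D1:**
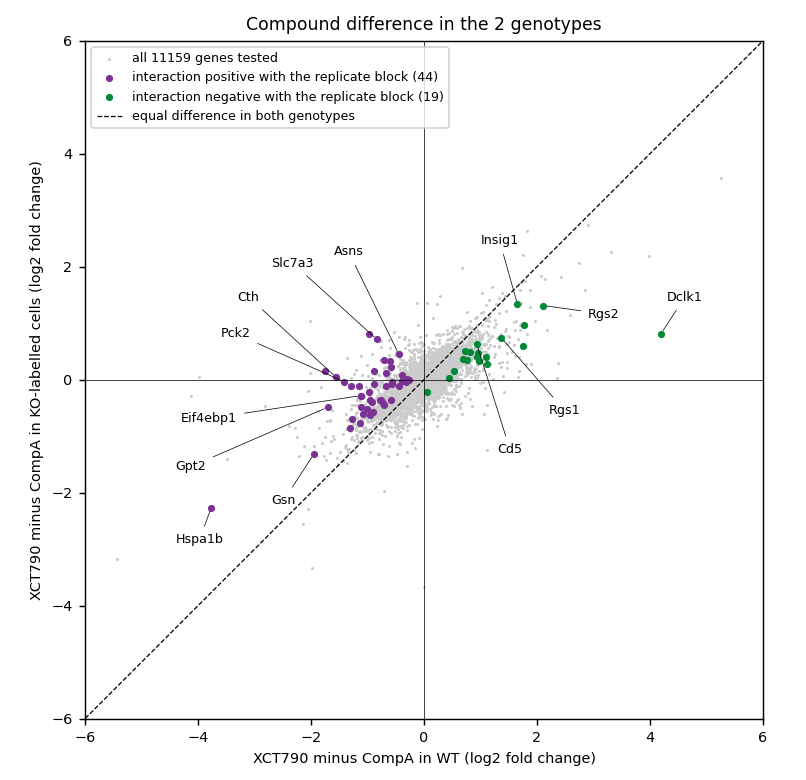
XCT790 minus CompA log2 fold change of each tested gene in WT (horizontal) and in KO-labelled cells (vertical), with 44 positive and 19 negative interactions called with the replicate block in colour. Positive interactions lie left of the dashed line of equality, where XCT790 was below CompA in WT, and negative ones right of it, where XCT790 was above CompA in WT, apart from Tfrc near 0.

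Most called members of the gene lists belonged to 5 lists of the ATF4 response and amino acid metabolism, 20 of 32. Of the 921 tested genes in the gene lists, 88 (9.55%) belonged to those 5. The lists were chosen with earlier results of these data known, so these shares are a description only. Of 16 tested ATF4 stress regulators, 7 had a called positive interaction and 0 a negative one, where 0.394% of all genes were called positive and 0.17% negative. The median XCT790 minus CompA difference of that list was -0.78 in WT and -0.09 in KO-labelled cells, and its median interaction was 0.57, against -0.01 over all genes. Called positive interactions numbered 5 of 18 among serine and one-carbon enzymes, 3 of 19 among enzymes of asparagine, proline, glutamate and branched-chain amino acids, 3 of 17 among amino acid transporters and 4 of 20 among aminoacyl-tRNA synthetases. None of these 4 lists had a negative call. The median interactions of these 4 lists were nearer to 0, between 0.01 and 0.14. All 20 distinct called genes of the 5 lists were positive.

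Eif4ebp1 (chromosome 8, 27260327 to 27275656) encodes 4E-BP1, a repressor of cap-dependent translation and an ATF4 target, and had the smallest adjusted p of all genes. Its level in WT stood at 66.9, 42.2, 56.2 and 62.2 CPM with XCT790 and at 139, 91.0, 131 and 132 CPM with CompA. Under the KO label it stood at 63.0, 52.0, 53.4 and 58.5 CPM with XCT790 and at 72.0, 70.2, 58.8 and 75.4 CPM with CompA. Every WT library with CompA was above all other 12 libraries, and the 3 remaining groups overlapped. The compound difference was -1.12 in WT and -0.28 in KO-labelled cells, and the interaction was 0.84 ± 0.07 (log2 ± SE, edgeR with the block, adjusted p = 1.79e-05). Within runs the difference was -1.22 to -1.06 in WT and -0.43 to -0.14 in KO-labelled cells. Without the block the interaction was 0.83 ± 0.20, with an unadjusted p of 0.00073 and an adjusted p of 1 in edgeR.

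Trib3 (chromosome 2, 152337425 to 152344060) encodes a pseudokinase that feeds back on ATF4. Its WT level was 15.0, 9.90, 12.8 and 16.1 CPM with XCT790 and at 38.5, 20.2, 36.3 and 36.8 CPM with CompA. KO-labelled libraries held Trib3 at 17.7, 19.0, 18.2 and 17.8 CPM with XCT790 and at 21.1, 23.8, 14.6 and 19.1 CPM with CompA. CompA libraries of WT were high in replicates 1, 3 and 4, whereas WT replicate 2, at 20.2 CPM, fell within the KO-labelled range. The compound difference was -1.29 in WT and -0.11 in KO-labelled cells, with an interaction of 1.20 ± 0.13 (edgeR with the block, adjusted p = 0.000119).

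Sesn2, a stress-induced inhibitor of mTORC1 signalling, and Chac1, which degrades glutathione, had the same form. For Sesn2 the interaction was 0.83 ± 0.10 (edgeR with the block, adjusted p = 0.000238), from a difference of -0.89 in WT and -0.07 in KO-labelled cells. Its levels split by run: KO replicate 2 was at 48.3 and 53.8 CPM, above the other KO-labelled libraries, and its within-run difference of -0.15 lay inside their range. Chac1 stood at 10.5 ± 3.37 CPM with CompA and 4.75 ± 1.25 CPM with XCT790 in WT (mean ± SD, n = 4), and at 5.74 ± 1.50 and 5.28 ± 1.54 CPM in KO-labelled cells. The other called members were Cth, described next, and the transcription factor genes Atf3 and Cebpb, with interactions of 0.54 ± 0.10 and 0.84 ± 0.17. The call of Chac1 ended without WT run 1, WT run 3, WT run 4, KO run 3 or KO run 4 (edgeR with the block, adjusted p up to 0.0721), and that of Cebpb without WT run 3, WT run 4 or KO run 3 (up to 0.09). Atf4 itself, named after its values were seen, was not called, with an interaction of 0.24 and a 95% interval of 0.10 to 0.39 with the block.

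Cth encodes cystathionine gamma-lyase, the last enzyme of transsulfuration to cysteine. In WT it stood at 5.38, 1.23, 4.34 and 4.20 CPM with XCT790 and at 14.3, 4.25, 10.9 and 15.1 CPM with CompA. Its KO-labelled levels were 4.27, 2.48, 4.54 and 4.04 CPM with XCT790 and 4.09, 2.23, 4.15 and 4.46 CPM with CompA. Replicate 2 was lowest in all 4 groups, and within every WT run CompA was the higher library. The compound difference was -1.55 in WT (edgeR with the block, adjusted p = 1.41e-08) and 0.04 in KO-labelled cells (adjusted p = 0.827). The interaction was 1.60 ± 0.17 (adjusted p = 0.000117 in edgeR with the block).

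Psat1 (chromosome 19, 15905123 to 15925059) and Psph encode the second and the last enzyme of serine synthesis. Psat1 in WT stood at 562, 475, 522 and 524 CPM with XCT790 and at 761, 564, 696 and 706 CPM with CompA. With the KO label it stood at 552, 379, 416 and 520.4 CPM with XCT790 and at 525, 403, 385 and 449.6 CPM with CompA. In WT CompA was higher in each run, while in KO-labelled cells 3 of 4 runs had slightly more with XCT790. The interaction of Psat1 was 0.46 ± 0.06 and that of Psph was 0.48 ± 0.07 (edgeR with the block, adjusted p = 0.000684 and 0.0022). Aldh18a1, which starts proline synthesis, and Aldh1l2, a mitochondrial folate enzyme at no more than 1.05 CPM in any group mean, were also called, at 0.35 ± 0.07 and 1.78 ± 0.37. Their calls ended without WT run 3, WT run 4, KO run 1, KO run 3 or KO run 4 for Aldh18a1 and without WT run 1, WT run 4, KO run 1, KO run 3 or KO run 4 for Aldh1l2 (edgeR with the block, adjusted p up to 0.0919 and 0.186).

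Asns (chromosome 6, 7675165 to 7693209), asparagine synthetase, was among the 14 genes whose compound difference had opposite signs. Its WT levels were 19.5, 12.5, 19.2 and 15.8 CPM with XCT790 and 27.4, 16.9, 23.5 and 23.4 CPM with CompA. KO-labelled cells had 19.7, 23.6, 24.3 and 31.6 CPM with XCT790 and 15.9, 18.1, 17.5 and 21.3 CPM with CompA. XCT790 was the lower library in each WT run and the higher library in each KO-labelled run. The difference was -0.45 in WT and 0.45 in KO-labelled cells, each called in its genotype with the block (edgeR, adjusted p = 3.53e-05 and 4.98e-05), and the interaction was 0.89 ± 0.09 (adjusted p = 8.47e-05).

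Slc7a3, a transporter of cationic amino acids, also reversed. It stood in WT at 5.66, 2.64, 5.05 and 4.25 CPM with XCT790 and at 8.99, 4.48, 8.09 and 9.81 CPM with CompA. Under the KO label Slc7a3 was at 4.57, 4.85, 5.03 and 5.07 CPM with XCT790 and at 3.02, 3.50, 2.19 and 3.27 CPM with CompA. The 4 KO-labelled CompA libraries were below all WT CompA libraries, and XCT790 levels overlapped. Its interaction was 1.56 ± 0.19 (edgeR with the block, adjusted p = 0.00037). Slc6a9, a glycine transporter, went from -0.71 in WT to 0.35 in KO-labelled cells, and Slc7a11, the cystine-glutamate exchanger, from -0.89 to 0.16. Of these 2, only Slc6a9 passed the test within KO-labelled cells (edgeR with the block, adjusted p = 0.0324 against 0.38). The interaction call of Slc7a11 ended without WT run 1, WT run 3, WT run 4, KO run 3 or KO run 4 (edgeR with the block, adjusted p up to 0.0646).

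Gpt2, mitochondrial alanine aminotransferase, and Pck2, the mitochondrial form of phosphoenolpyruvate carboxykinase, link amino acid and carbohydrate metabolism. Pck2 (chromosome 14, 55540263 to 55550020), which is in none of the lists, stood in WT at 32.5, 19.4, 25.3 and 32.1 CPM with XCT790 and at 91.3, 49.8, 70.1 and 79.8 CPM with CompA. In KO-labelled libraries Pck2 was at 44.9, 25.0, 51.2 and 43.5 CPM with XCT790 and at 46.3, 38.6, 41.8 and 42.4 CPM with CompA. Each WT run had less with XCT790, while KO-labelled runs went in both directions, from -0.62 to 0.29. The compound difference was -1.41 in WT and -0.04 in KO-labelled cells, and the interaction was 1.36 ± 0.13 (edgeR with the block, adjusted p = 5.02e-05). For Gpt2 the difference was -1.71 and -0.49, and the interaction 1.21 ± 0.14.

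The aminoacyl-tRNA synthetases that charge serine, asparagine, glycine and alanine, Sars, Nars, Gars and Aars, had small interactions of 0.26 to 0.33. The call of Aars ended without WT run 3, WT run 4, KO run 1 or KO run 3 (edgeR with the block, adjusted p up to 0.0966). Sars was at 390.0, 353, 362 and 369.5 CPM with XCT790 and at 533, 447, 499 and 522 CPM with CompA in WT. In KO-labelled cells Sars was at 384, 319, 346 and 364 CPM with XCT790 and at 400.5, 373, 355 and 391 CPM with CompA. The WT CompA libraries were above all others. Sars differed by -0.44 between the compounds in WT and by -0.11 in KO-labelled cells, an interaction of 0.33 ± 0.05 (edgeR with the block, adjusted p = 0.00327).

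**Figure D2:**
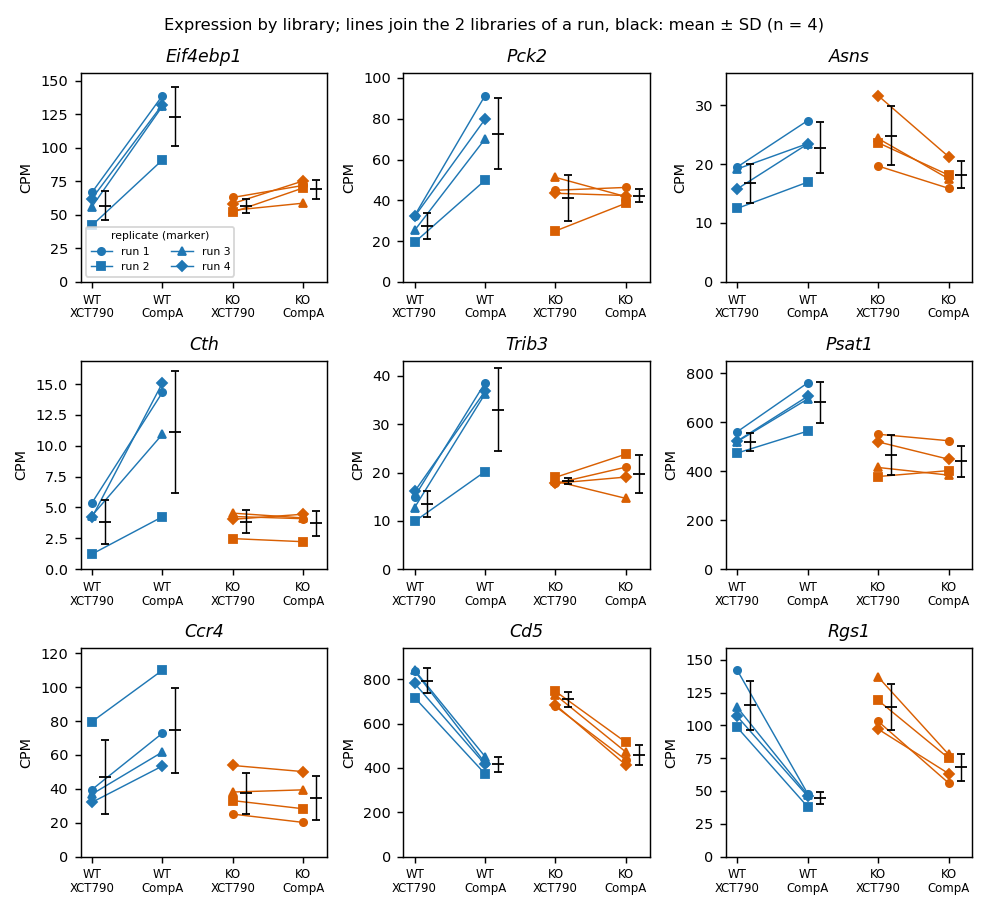
Expression in CPM (vertical axis, from 0) of 9 genes in each of the 16 libraries, with a line joining the XCT790 and the CompA library of a run and mean ± SD of 4 libraries in black. For Eif4ebp1, Pck2, Cth and Trib3 the WT lines rise from XCT790 to CompA and the KO-labelled lines are flatter, for Asns the lines run in opposite directions, and for Cd5 and Rgs1 both genotypes fall from XCT790 to CompA, more steeply in WT.

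Set out by compound, the estimated genotype difference was larger with CompA than with XCT790 in 17 of these 20 genes. Over all 44 positive genes, which include these 20, it was larger with CompA in 26, and in 11 of the 19 negative ones. Outside the 20, most positive genes had the larger genotype difference with XCT790. The share over all genes tested was not counted. KO-labelled and WT cells differed in 1277 genes with CompA (11.4%) and in 1697 with XCT790 (15.2%). With CompA, 12 of the 20 were lower in KO-labelled cells and 0 higher, where 3.48% of all genes tested were lower and 7.97% higher. With XCT790, 0 were lower and 3 higher, Asns, Slc7a11 and Cebpb, where 5.81% of all genes were lower and 9.4% higher. The median KO minus WT difference of the 20 genes was -0.51 on the log2 scale with CompA and 0.08 with XCT790. These counts are a description, since the genes were called on an interaction built from the same libraries, and they come from the fit without the block because each run holds 1 genotype.

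The upstream sequence of 4 of these genes is shown because they carry the element that C/EBP-ATF heterodimers bind, here TGATGCAA on either strand, or in Asns the variant TGATGAAA. Sequences are the 250 bases before a transcript start that RefSeq gives for the gene in GRCm38.p6, which for Slc7a11 lies inside its annotated span, written 5′ to 3′ on the gene's strand, with the matched element in capitals.
Chac1 (chr2:119350992-119351241, plus strand): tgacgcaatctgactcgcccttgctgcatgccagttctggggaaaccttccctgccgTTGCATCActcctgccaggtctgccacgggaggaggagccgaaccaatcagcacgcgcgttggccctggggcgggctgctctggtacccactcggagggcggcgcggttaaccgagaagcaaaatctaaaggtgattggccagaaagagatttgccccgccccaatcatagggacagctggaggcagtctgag
Atf3 (chr1:191183334-191183583, minus strand): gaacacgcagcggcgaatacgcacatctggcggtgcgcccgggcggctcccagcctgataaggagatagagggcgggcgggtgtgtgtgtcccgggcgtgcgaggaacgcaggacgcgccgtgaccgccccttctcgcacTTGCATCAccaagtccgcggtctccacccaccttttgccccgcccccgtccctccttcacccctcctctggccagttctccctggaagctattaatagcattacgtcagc
Slc7a11 (chr3:50443614-50443863, minus strand): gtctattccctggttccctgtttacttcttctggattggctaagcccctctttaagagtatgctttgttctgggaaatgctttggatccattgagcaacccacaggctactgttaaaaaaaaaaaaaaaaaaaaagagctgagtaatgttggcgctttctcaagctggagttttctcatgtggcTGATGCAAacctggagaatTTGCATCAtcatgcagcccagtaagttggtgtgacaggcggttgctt
Asns (chr6:7693210-7693459, minus strand): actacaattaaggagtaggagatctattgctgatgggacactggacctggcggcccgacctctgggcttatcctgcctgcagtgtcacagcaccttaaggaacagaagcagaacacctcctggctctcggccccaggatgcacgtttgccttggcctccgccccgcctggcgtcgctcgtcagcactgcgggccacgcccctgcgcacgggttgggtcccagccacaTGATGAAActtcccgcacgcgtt

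Windows from 250 bases before to 50 after such a start were found for 8555 of the 11159 genes tested, among them 30 of the 44 positive and 14 of the 19 negative genes. TGATGCAA, on both strands, lay in the windows of 68 of these genes (0.795%), in 4 of the 30 positive genes (Aars, Atf3, Chac1 and Slc7a11) and in 0 of the 14 negative ones. TGATGNAA, a wider form that includes TGATGCAA and was searched after the data were seen, lay in those of 229 genes (2.68%), in 8 of the 30 (those 4 with Asns, Gars, Pck2 and Trib3) and in 0 of the 14. The response element AAAGGTCA, which Nur77 binds as a monomer, was in those of 95 genes (1.11%), and the extended ERR-alpha element TCAAGGTCA was in 28 (0.327%). Neither was in a window of a called gene, which at these shares and with so few windows does not set the called genes apart. A match describes letters in a window and is not a measured binding site.

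Outside amino acid metabolism the positive interactions included genes of T helper identity. Of 16 tested type 2 and type 17 helper genes, 3 were called positive, Ccr4, Gata3 and Nfil3, and 0 negative, where 0.394% and 0.17% of all genes were, and the list's median difference was -0.54 in WT and -0.21 in KO-labelled cells. Ccr4 encodes a chemokine receptor of type 2 and regulatory T cells. Its WT levels stood at 39.6, 79.7, 36.9 and 32.0 CPM with XCT790 and at 72.8, 110.0, 61.7 and 53.5 CPM with CompA. Its KO-labelled levels stood at 25.1, 33.0, 38.1 and 53.8 CPM with XCT790 and at 20.1, 28.2, 39.4 and 50.1 CPM with CompA. Replicate 2 of WT was highest with both compounds, so the groups overlap in level, while the within-run difference was -0.88 to -0.47 in WT and -0.05 to 0.31 in KO-labelled cells. The interaction was 0.83 ± 0.09 (edgeR with the block, adjusted p = 0.000141).

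Gata3, the regulator of type 2 helper fate, was lower with XCT790 in each of the 8 runs. It differed by -1.28 in WT and -0.69 in KO-labelled cells, with an interaction of 0.61 ± 0.11 (edgeR with the block, adjusted p = 0.0124, and 0.0543 without KO run 3). Nfil3, a basic leucine zipper factor, differed by -1.12 and -0.48. Without WT run 1 Nfil3 was not called (edgeR with the block, adjusted p = 0.0548). From the type 1 helper list only Il12rb1, an interleukin-12 receptor chain, was called among 16 tested, at 0.33 ± 0.06. Of all genes 0.394% were called positive. None of 23 tested effector cytokines was called, which at 0.565% over all genes does not set these cytokines apart. Their median difference was -0.56 in WT and -0.26 in KO-labelled cells. The cytokine genes with the smallest p were Il21 and Il17f, with interactions of 0.69 (-0.26 to 1.65) and 0.99 (-0.55 to 2.53) without the block.

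Among 21 tested inhibitory receptor and anergy genes 1 was called in each direction, where 0.394% of all genes were called positive and 0.17% negative. Lag3, which binds MHC class II, was at 113, 197, 100.2 and 122 CPM with XCT790 and at 311, 421, 285 and 311 CPM with CompA in WT. Lag3 in KO-labelled cells was at 169, 120.4, 205 and 195 CPM with XCT790 and at 277, 204, 345 and 418 CPM with CompA. XCT790 was lower in each of the 8 runs, by -1.32 in WT and -0.85 in KO-labelled cells, and the interaction was 0.51 ± 0.09 (edgeR with the block, adjusted p = 0.00735). Pdcd1, which encodes PD-1, had a negative interaction of -0.43 ± 0.07 (adjusted p = 0.00492, same test). Its difference was 0.43 in WT, higher with XCT790 in 4 of 4 runs, and 0.02 in KO-labelled cells. Levels of Pdcd1 in replicate 2 were lowest in WT, at 77.0 and 50.2 CPM, and highest in KO-labelled cells, at 135 and 129 CPM.

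Negative interactions were led by genes that were higher with XCT790 in both genotypes, and more so in WT. Rgs1 (chromosome 1, 144244669 to 144249104) encodes a regulator of G protein signalling that restrains chemokine receptors. In WT it was at 142, 98.5, 114 and 107 CPM with XCT790 and at 48.0, 37.9, 47.0 and 46.0 CPM with CompA. Its KO-labelled values were 103, 119, 137 and 97.2 CPM with XCT790 and 56.1, 75.1, 78.0 and 63.3 CPM with CompA. XCT790 levels overlapped between genotypes, whereas all KO-labelled CompA libraries lay above the WT ones. The difference was 1.37 in WT and 0.74 in KO-labelled cells, with an interaction of -0.61 ± 0.08 (edgeR with the block, adjusted p = 0.000616).

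Rgs2, a relative that acts on Gq, repeated this form at lower level. It was at 37.0, 20.5, 31.9 and 35.0 CPM with XCT790 and at 7.22, 6.40, 7.77 and 7.40 CPM with CompA in WT. KO-labelled Rgs2 was at 31.2, 32.3, 32.9 and 29.4 CPM with XCT790 and at 12.0, 14.9, 11.7 and 12.2 CPM with CompA. With CompA each KO-labelled library exceeded each WT library, and with XCT790 WT replicate 2 was the lowest of all 8. The interaction was -0.78 ± 0.13 (edgeR with the block, adjusted p = 0.00462). Without the block, omission of WT XCT790 replicate 2 made Rgs2 the only gene called.

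Cd5 and Cd6, neighbouring genes for related scavenger-type receptors that dampen T cell receptor signals, had nearly equal interactions. Cd5 (chromosome 19, 10718107 to 10739026) stood in WT at 838, 718, 841 and 782 CPM with XCT790 and at 423, 373, 451 and 416 CPM with CompA. KO-labelled Cd5 stood at 678, 746, 729 and 684 CPM with XCT790 and at 436, 516, 472 and 413 CPM with CompA. No XCT790 library overlapped a CompA library in either genotype. The difference of Cd5 was 0.93 in WT and 0.63 in KO-labelled cells, an interaction of -0.30 ± 0.05, and that of Cd6 (chromosome 19, 10789339 to 10830062) was 0.82 and 0.50, an interaction of -0.32 ± 0.05 (edgeR with the block, adjusted p = 0.0033 and 0.0022). Cd5 was the only call among 11 tested T helper defining markers, where 0.17% of all genes were called negative.

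Sterol genes were higher with XCT790 than with CompA in both genotypes. Of 28 tested genes of cholesterol synthesis and uptake, 24 were higher with XCT790 in WT and 23 in KO-labelled cells with the block, where 22.6% and 17.2% of all genes were. The median difference was 0.70 in WT and 0.48 in KO-labelled cells. Of these 28 genes 1 interaction was called, the negative one of Insig1, where 0.17% of all genes were called negative. Insig1, the sterol-sensing retention protein, was at 160.2, 179, 153 and 153 CPM with XCT790 and at 49.9, 58.5, 48.4 and 48.5 CPM with CompA in WT. In KO-labelled cells Insig1 was at 169, 118, 129 and 136 CPM with XCT790 and at 69.2, 44.8, 53.5 and 51.3 CPM with CompA. Its difference was 1.65 against 1.33, and the interaction was -0.32 ± 0.06 (edgeR with the block, adjusted p = 0.012). The call of Insig1 ended without WT run 1, WT run 3, WT run 4 or KO run 3 (edgeR with the block, adjusted p up to 0.0872).

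In 7 of the 28 cholesterol genes all KO-labelled within-run differences lay below all WT ones, against 3.15% of all genes. Acsl3, which activates fatty acids, was the only call among 18 tested fatty acid synthesis genes, at -0.47 ± 0.10. Of all genes 0.17% were called negative. The call of Acsl3 ended without WT run 1, WT run 4, KO run 3 or KO run 4 (edgeR with the block, adjusted p up to 0.153). Scd2, a desaturase, had the largest positive XCT790 minus CompA difference in WT among called genes that reached 10 CPM, 2.13, and 1.79 in KO-labelled cells, with an interaction that was not called (-0.34, 95% interval -1.06 to 0.37).

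**Figure D3:**
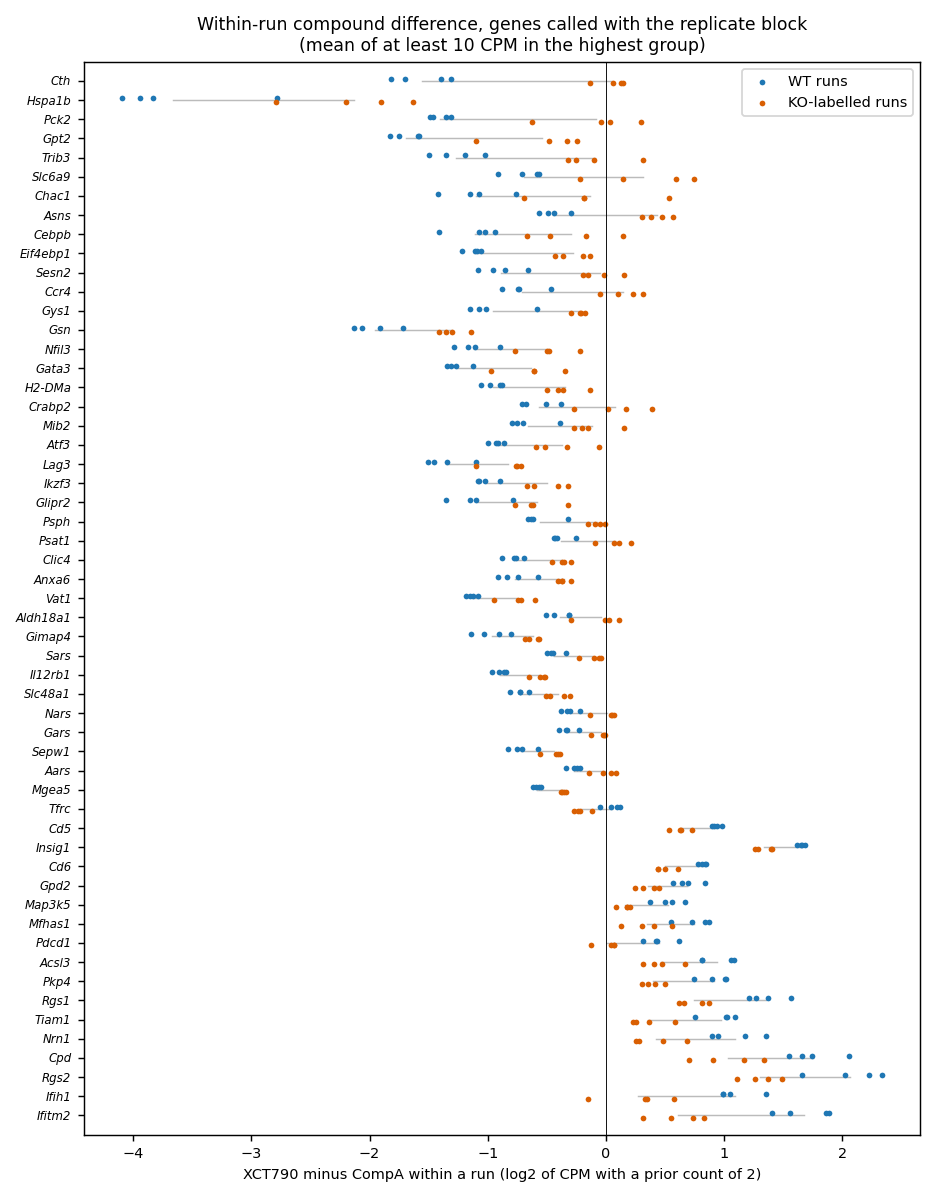
XCT790 minus CompA within each run (horizontal, log2 of CPM with a prior count of 2) for 55 genes called with the block whose highest group mean reached 10 CPM, with 4 WT and 4 KO-labelled runs per gene and a grey line between genotype means. Points of the KO-labelled runs lie nearer to 0 in most rows, the exception being Tfrc, and overlap those of WT in Hspa1b and Mfhas1.

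The heat shock list had 1 call among 19 tested genes, a positive one, where 0.394% of all genes were called positive. Hspa1b, an inducible chaperone of the HSP70 family, was at 1.51, 0.469, 1.03 and 0.871 CPM with XCT790 and at 11.0, 8.09, 19.3 and 14.9 CPM with CompA in WT. In KO-labelled cells Hspa1b was at 1.58, 1.58, 1.50 and 1.56 CPM with XCT790 and at 5.12, 7.65, 5.89 and 11.4 CPM with CompA. XCT790 was far below CompA in all runs, by -3.77 in WT and -2.27 in KO-labelled cells, and the interaction was 1.52 ± 0.31 (edgeR with the block, adjusted p = 0.0315). The call of Hspa1b ended without WT run 3, WT run 4, KO run 1 or KO run 3 (edgeR with the block, adjusted p up to 0.112). Its near-identical copy Hspa1a gave 2.27 ± 0.50 and was not called (adjusted p = 0.0523, same test). Reads of these 2 genes may be split between them, so both values are uncertain. Over the 19 tested genes of the list the median interaction was -0.02.

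Gys1 (chromosome 7, 45434839 to 45456617), glycogen synthase, had the smallest unadjusted p without the block. It stood in WT at 14.0, 13.4, 11.8 and 13.6 CPM with XCT790 and at 28.3, 20.1, 26.2 and 28.6 CPM with CompA. Under the KO label Gys1 stood at 14.1, 15.3, 16.0 and 16.5 CPM with XCT790 and at 16.4, 18.9, 18.04 and 19.2 CPM with CompA. All WT CompA libraries were the highest, and WT replicate 2 was the nearest to the KO-labelled ones. The interaction was 0.74 ± 0.15 without the block (edgeR, unadjusted p = 0.000131, adjusted p = 1) and 0.74 ± 0.11 with it (adjusted p = 0.00235).

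Tfrc, called in the opposite form, differed by 0.05 in WT and -0.21 in KO-labelled cells. Its levels were widest in replicate 2, at 894 and 1050.3 CPM in KO-labelled cells against 454 to 581 CPM in the other 3 runs. Within runs Tfrc was lower with XCT790 in 4 of 4 KO-labelled runs (-0.27 to -0.11) and in 1 of 4 WT runs (-0.05 to 0.12). The interaction was -0.26 ± 0.05 (edgeR with the block, adjusted p = 0.0186). This call ended without WT run 1, WT run 4, KO run 2 or KO run 3 (edgeR with the block, adjusted p up to 0.137).

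Dclk1, with the largest negative estimate, is a gene at the limit of detection. WT CompA libraries had 1, 0, 2 and 0 counts against 13, 8, 22 and 22 with XCT790. KO-labelled libraries had 5, 16, 25 and 19 counts with CompA and 24, 20, 44 and 34 with XCT790. It was higher with XCT790 in each run. The fitted interaction was called with the block (edgeR, adjusted p = 0.0297), and its size depends on the prior count. The call ended without WT run 1, WT run 3, WT run 4, KO run 3 or KO run 4 (edgeR with the block, adjusted p up to 0.134).

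Genes of the targets that the compound and the knockout name showed no called interaction, where 0.565% of all genes had one. At that share, the lack of a call among so few genes does not set them apart. Esrra was at 25.0 ± 0.368 CPM with XCT790 and 33.4 ± 2.29 CPM with CompA in WT, and at 22.1 ± 4.18 and 33.6 ± 4.51 CPM in KO-labelled cells (mean ± SD, n = 4). It was lower with XCT790 in each of the 8 runs, and its interaction was -0.18 with a 95% interval of -0.55 to 0.18 without the block and -0.37 to -0.02 with it. Nr4a3 differed by -1.16 in WT and -1.08 in KO-labelled cells, with an interaction of 0.08 (-0.33 to 0.49). For Nr4a2 the interaction was -0.31 (-0.95 to 0.33).

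Among 18 tested ERR-alpha target genes, 36 complex I genes and 39 genes of complexes II to V, 0 were called. The same held for 22 genes of the tricarboxylic acid cycle and 40 mitochondrial ribosome genes. With 0.565% of all genes called, 0 calls in lists of this size do not set them apart. The median interactions of these lists lay between -0.05 and 0.06. In 31 of the 48 lists no member was called with the block, where 0.565% of all genes were. Among 35 glycolysis and hypoxia genes, 25 were lower with XCT790 in WT and 26 in KO-labelled cells, where 21.4% and 18.5% of all genes were. Of their interactions 0 were called, which at 0.565% over all genes does not set them apart. Slc16a3, the lactate exporter MCT4, had a positive estimate of 0.93 ± 0.21 that missed the threshold (edgeR with the block, adjusted p = 0.0613). Markers of B cells, macrophages, CD8 T and natural killer cells, and erythroid, platelet, neutrophil and stromal cells gave 0 called interactions among 14, 15, 10 and 7 tested. At a share of 0.565% over all genes, 0 calls in lists this short do not set these markers apart.

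**Figure D4:**
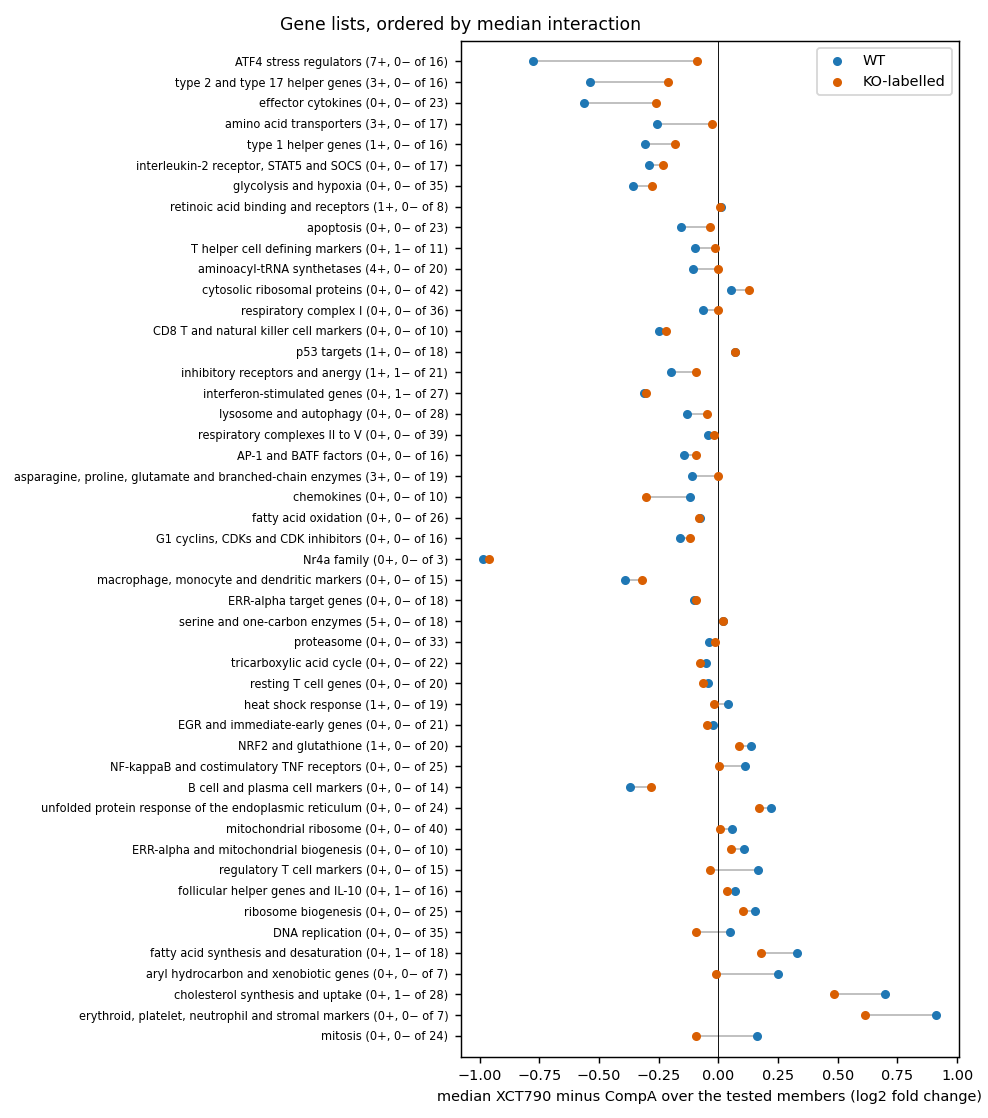
Median XCT790 minus CompA log2 fold change over the tested members of 48 gene lists in WT and in KO-labelled cells, ordered by median interaction, with the numbers of positive and negative interactions called with the replicate block beside each name. The ATF4 stress regulators have the widest gap, from -0.78 in WT to -0.09 in KO-labelled cells, and the Nr4a family and the ERR-alpha target genes have nearly equal medians.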

How the data were processed

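Each library has 1 deposited file of whole-number read counts per gene, deposited by the authors without normalization. Per the submitters' processing notes, the tools were Trimmomatic 0.36, HISAT2 2.1.0, SAMtools, HTSeq 0.9.1 and DESeq2 1.18.1, with the mm10 build. Annotation and strand setting are not given in the sources used here, so overlapping genes and near-identical copies may share reads. The 5 summary lines per file, which name no gene, were left out: unassigned reads outside genes were 3.38 to 4.48% and ambiguous reads 0.685 to 0.885% of a file's total.

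Counts of the 16 libraries were tested with edgeR 4.0.16 (quasi-likelihood, TMM, default low-count filter, R 4.3.3), with a mean per group and Benjamini-Hochberg adjustment over 11159 genes. The run from the titles' library numbers was the replicate block in an alternative. The labels do not say what a run shares. Its use rests on same-run correlations of deviations, each above 0.1. WT libraries of different runs also reached 0.103 and 0.150, so this threshold alone does not separate the runs. limma 3.58.1 and DESeq2 1.42.0 were further alternatives. No 2 libraries of a group agreed within sampling noise. Chi-square per degree of freedom was 3.01 to 29.3 between WT libraries of a group and 13.6 to 68.7 between KO-labelled ones. WT pairs above 5.61 all included replicate 2. Each edgeR fit used 1 dispersion, its measure of variation, per gene for both genotypes. CPM use TMM-scaled totals. Coordinates and promoter sequences are RefSeq's (GRCm38.p6), matched by symbol for all 148 names looked up. The procedure was run on simulated data with a run effect built in alike for both genotypes. That run does not show whether the block suits these libraries.

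The comparison, members and lists were chosen with earlier results of these data known. Naming took Nr4a1 to Nr4a3 and Esrra, called genes, the smallest p of each list, the 5 largest compound differences of each direction in WT and the 8 smallest p of each direction. Since the test without the block called 0 genes, those called with the block, and the promoters shown, were named after their values were seen. One of the genes called with the block is counted among the 63 but is otherwise not reported here, and was left out of its list and the plots that name genes.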

Additional observations from a re-analysis of the deposited data

Results flagged for a closer look

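The XCT790 minus CompA difference differed between genotypes in 63 genes by the interaction with the replicate block in edgeR, and in 0 without it. Of 192 groups of 4 values examined for 32 genes, 26 had a sample that stood apart from the other 3, and 22 of these came from replicate 2. Chance flags about 1 group in 20, and the genes share libraries.

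Among WT libraries with CompA, replicate 2 was apart for Eif4ebp1 at 91.0 CPM, Trib3 at 20.2 CPM, Sesn2 at 26.4 CPM, Gpt2 at 15.1 CPM and Chac1 at 5.53 CPM, all low. In the same library Pdcd1 was low at 50.2 CPM and Tfrc at 425 CPM, and Insig1 was high at 58.5 CPM. The WT XCT790 library of replicate 2 stood apart for Ccr4 at 79.7 CPM, Gata3 at 16.2 CPM and Pdcd1 at 77.0 CPM.

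Replicate 2 of KO with CompA was apart for Cth at 2.23 CPM (low), Sesn2 at 53.8 CPM, Pdcd1 at 129 CPM, Rgs2 at 14.9 CPM, Slc16a3 at 63.9 CPM and Tfrc at 1050.3 CPM (high). With XCT790 the same replicate was high for Sesn2 at 48.3 CPM, Pdcd1 at 135 CPM and Tfrc at 894 CPM. Slc6a9 was low in KO CompA replicate 3 at 7.23 CPM.

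Of the within-run differences, the WT run of replicate 2 was apart for Nr4a3 at -1.04 and Psat1 at -0.25, and the WT run of replicate 4 for Slc7a3 at -1.19. In KO-labelled cells the run of replicate 4 was apart for Lag3 at -1.10 and that of replicate 1 for Pdcd1 at -0.12.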

How the results depend on the processing

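The number of called interactions turns on the replicate block. Without it the count was 0 in edgeR under other scalings, other filters, limma-voom and a fit of all 32 libraries, and 4 (4 positive) in DESeq2. Leaving out each library gave 0 to 2 (0 to 2 positive, 0 to 1 negative): Rgs2 without WT XCT790 replicate 2, and Gys1 and Trib3 without WT CompA replicate 2. With the block it was 63 (44 positive, 19 negative). Leaving out each run then gave 38 to 122 (28 to 94 positive, 10 to 28 negative), omitting the low-count filter gave 219 (159 and 60), upper-quartile factors gave 77 positive, and the run as a random term in limma-voom gave 29 (21 and 8), these blocked alternatives being chosen after seeing the data. XCT790 against CompA called 1590 genes in WT, 976 to 1876 when 1 library was left out, 2031 without both libraries of KO replicate 2 and 4909 with the block. In KO-labelled cells it called 606 genes, 235 to 683 when a library was left out, 967 in DESeq2, 400 in the fit of all 32 libraries and 3980 with the block. KO against WT called 1697 genes with XCT790 (811 to 2096 when a library was left out) and 1277 with CompA (626 to 2114). Without the block, the share of higher calls moved from 51.3% to 39.7% for XCT790 against CompA in KO-labelled cells under library totals, from 61.8% to 77.1% (upper-quartile) and 76.9% (library totals) for KO against WT with XCT790, and from 69.6% to 80.1% (library totals) with CompA, while no scaling moved the median of all genes by over 0.1. Interactions near 0 changed sign when libraries were left out: Nr4a1 ranged from -0.099 to 0.26 (-0.13 without both libraries of KO replicate 2), Nr4a3 from -0.0055 to 0.19, Spin4 from -0.22 to 0.542 (0.553 without both) and Tfrc from -0.51 to 0.028, Tfrc without the block. The causes were not tested. Counts as low as those of Dclk1 limit the precision of its estimate.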

Other observations

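Some interaction genes also differed widely between genotypes whatever the compound. Crabp2, a carrier of retinoic acid, stood at 48.7 ± 4.53 CPM with XCT790 and 72.6 ± 10.9 CPM with CompA in WT, and at 19.1 ± 9.76 and 19.7 ± 13.9 CPM in KO-labelled cells (mean ± SD, n = 4). Its interaction was 0.58 ± 0.11 (edgeR with the block, adjusted p = 0.0186). The call of Crabp2 ended without WT run 1, KO run 1 or KO run 3 (edgeR with the block, adjusted p up to 0.0582). Nrn1, which encodes neuritin, was at 56.2 ± 8.24 and 26.1 ± 1.67 CPM in WT and at 171 ± 42.6 and 129.6 ± 44.7 CPM in KO-labelled cells, in the same order of compounds. Tiam1, an activator of the GTPase Rac, was likewise higher under the KO label, by 0.92 with XCT790 and 1.55 with CompA on the log2 scale (edgeR, adjusted p = 0.000914 and 1.32e-05).

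Several of the largest compound differences in WT had no called interaction. Spin4 was higher with XCT790 by 1.71 in WT and 1.71 in KO-labelled cells, an interaction of 0.01 with a 95% interval of -0.98 to 0.99 without the block. Gm14718 differed by -1.73 and -1.41, with an interval of -0.37 to 1.00. Others were called with the block: Ifitm2, an interferon-induced membrane protein, at -1.13 ± 0.15, Cpd, a carboxypeptidase, at -0.77 ± 0.13, and Gsn, the actin-severing protein gelsolin, at 0.65 ± 0.10. The mitosis list had the most negative median interaction, -0.28 over 24 tested genes. With 0.565% of all genes called, the 0 calls of this list do not set it apart. Its members with the smallest p, Prc1 and Kif11, had estimates of opposite sign, 0.77 (-0.18 to 1.72) and -0.84 (-2.03 to 0.34). Nmnat3 (-0.53), at 10.6 to 12.3 CPM in WT with XCT790, had a small unadjusted p and no call in either fit. Low genes of that kind were Sord (1.85), Fam84a (-1.61), Pcdhgb6 (-1.06) and Esm1 (-2.08), while 1110054M08Rik was called with the block at 1.93 ± 0.40. That call ended without WT run 1, WT run 2, WT run 3, KO run 1 or KO run 3 (adjusted p up to 0.105 in edgeR with the block).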
